A study of Mus musculus with 12 samples.

Results

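ATF4 is the transcription factor at the centre of the integrated stress response, and 42 genes of its amino acid and tRNA synthetase programme were followed through B16F10 tumours of mice given alisertib, navitoclax or both. The genes were taken by name, with no threshold on their values, but the list was chosen with earlier results of these data known. They cover ATF4 and its partner and feedback regulators, enzymes of asparagine, serine, glycine, proline and cysteine synthesis, amino acid transporters, cytosolic aminoacyl-tRNA synthetases and the tRNA export receptor. A row was found for 41 of the 42 among 50600 genes, and 40 of the 41 had a normalized read count of at least 10 in at least 3 libraries and entered the tests, among 16993 genes that did. Stc2, which encodes stanniocalcin 2, did not, with 0 to 9.17 normalized reads over the 12 libraries. No row is named Mars1, the gene of the cytosolic methionyl-tRNA synthetase; a row under its older symbol Mars was kept outside the counts.

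The tumours were grown by injecting 50000 B16F10 cells, a melanoma line of C57Bl/6 origin labelled as wild genotype, under the skin of C57Bl/6 mice. Each of 4 groups had 3 RNA-sequencing libraries: drug vehicle, alisertib at 25 mg/kg, navitoclax at 100 mg/kg, and a combination of both drugs at the same doses, given daily by gavage over 11 days. Alisertib inhibits the mitotic kinase Aurora A, and navitoclax is a BH3 mimetic that blocks anti-apoptotic BCL-2 family proteins. Every group thus shared the transplanted line and the host strain; tumours were sequenced whole, and the labels give no age. Whether the 3 libraries of a group stem from different animals is not stated, so the p-values speak of the spread among these libraries, part of which may be technical.

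The integrated stress response begins with kinases that sense amino acid shortage, unfolded proteins, viral RNA or haem deficiency and phosphorylate the initiation factor eIF2α. General translation then falls while ATF4 mRNA is translated more efficiently, so that the ATF4 transcript is not a measure of the protein. ATF4 binds C/EBP-ATF response elements with C/EBP partners and raises genes that make, import and charge amino acids. In melanoma the pathway is known for its link to nutrient limitation and to changes of cell state.

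The libraries held 26.8 to 36.7 M reads, of which 0.0218 to 0.179 M lay in the member genes. Ribosomal RNA was read from the rows Gm26917 and Gm42418 only. By this measure it took 63.3% of vehicle 2 and 73.7% of combination 3 against 13.8 to 35.4% of the others. A level of 3 reads was worth 7.35 and 10.9 normalized reads in vehicle 2 and combination 3 and 2.29 to 3.0 elsewhere. The melanoma label was checked against 8 markers, all 8 of which were measured and whose summed level was 419640 to 561883 normalized reads with vehicle and 481947 to 665786 in the other groups. Macrophage markers (all 8 measured) summed to 1073, 2490 and 2312 with vehicle, 3547 to 7708 with alisertib, 3776, 1459 and 5600 with navitoclax, and 4357 to 11273 with the combination. Fibroblast markers (all 6 measured) summed to 7104, 113088 and 14941 with vehicle and lay between 7066 and 174921 in the treated libraries, and skeletal muscle markers reached 100814 in navitoclax 1 against at most 753 elsewhere. No marker of these lists was at 0 in every library.

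Members fell with alisertib, given alone or with navitoclax, and none that was tested rose. By limma, with Benjamini-Hochberg adjustment over all 16993 genes, 6 of 40 fell with alisertib, against 0.318% of all tested genes. With the combination 17 of 40 fell, against 1.15% of all genes, and with navitoclax 0 of 40 fell, against 0.0647%. Over both navitoclax levels, libraries with alisertib were compared with those without it, and 26 of 40 members fell, against 1.88% of all genes. In these comparisons 0 members rose, where 0.553%, 1.38%, 0% and 2.62% of all genes rose with alisertib, the combination, navitoclax and alisertib over both levels. In bulk tumour RNA, fewer cells expressing a gene and less of its RNA per cell cannot be told apart.

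Member differences were negative for 39 of 40 genes with alisertib (median −0.80 on the log2(normalized read count + 2) scale, against 0.01 over all genes), for 36 with navitoclax (median −0.36 against 0.01) and for 39 with the combination (median −0.83 against −0.01). All 3 alisertib libraries lay below all 3 vehicle libraries for 36 members, where 10.5% of all genes did so. The corresponding counts were 32 members with the combination, against 9.47% of all genes, and 5 with navitoclax, against 8.64%. No tested member lay above vehicle in this way in any arm, where 10.7%, 9.73% and 6.5% of all genes did with alisertib, the combination and navitoclax. The 3 arms share the same 3 vehicle libraries, so their differences are not independent of each other. The count of 0 for navitoclax came from limma, where 13 members had an unadjusted p under 0.05. The share of all genes under that unadjusted cut was not computed, so such counts, here and below, have no background beside them. On recovered reads edgeR called 0 members and 0.0471% of all genes, and DESeq2 called 1 member and 0.459% of all genes.

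**Figure D1:**
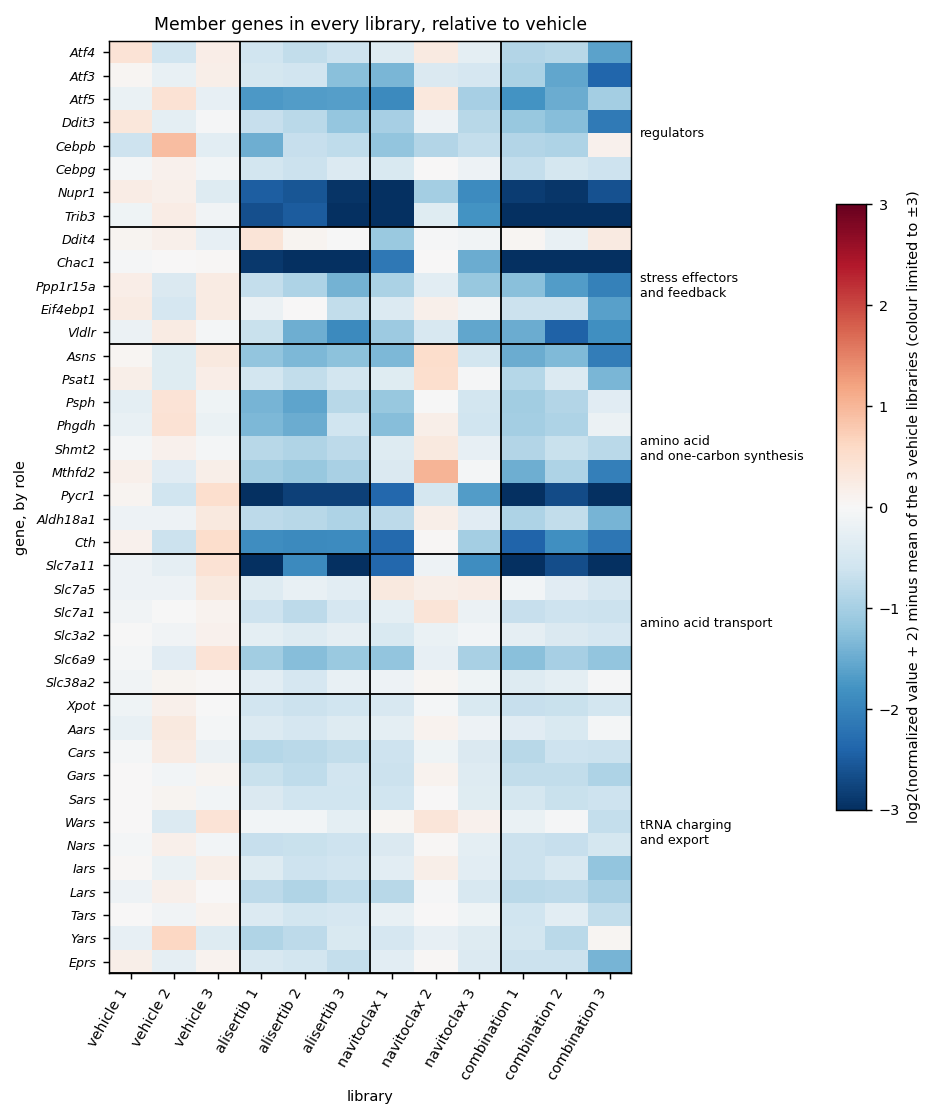
The 40 tested members (rows, by role) in the 12 libraries (columns, by group), coloured by the difference from the vehicle mean on the log2(normalized read count + 2) scale. The alisertib and combination columns are shaded towards lower values for most genes, and navitoclax 2 is close to the vehicle columns, with a member median of 0.02.

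Among the regulators of the response, 2 of 8 fell with alisertib, 5 with the combination and 0 with navitoclax, with medians of −0.93, −1.47 and −0.81. Atf4 itself (ENSMUSG00000042406.7, chr15:80255184-80257541, plus strand) stood at 8435, 4219 and 7352 normalized reads with vehicle, 4257, 3847 and 4183 with alisertib, 4911, 7737 and 5209.7 with navitoclax, and 3475, 3612 and 2113 with the combination. Vehicle 2 lay within the treated range, and the combination libraries were the lowest. Its difference of −1.10 ± 0.28 with the combination did not pass (adjusted p = 0.0682), nor did that of −0.64 ± 0.28 with alisertib (adjusted p = 0.369), while over both navitoclax levels it fell by 0.81 ± 0.20 with alisertib (adjusted p = 0.0476). Ddit3 encodes CHOP, the partner of ATF4 that is known for promoting cell death under lasting stress (ENSMUSG00000025408.15, chr10:127290774-127296288, plus strand). It stood at 2688, 1735 and 2099 normalized reads with vehicle, 1331, 1227 and 949 with alisertib, 1068, 1924 and 1205 with navitoclax, and 979, 888 and 492 with the combination. All combination and alisertib libraries were below vehicle, while navitoclax 2 was within the vehicle range; the fall with the combination was 1.5 ± 0.30 (adjusted p = 0.0263), and the difference with alisertib was −0.89 ± 0.30 (adjusted p = 0.236). The Ddit3 call held in 8 of 12 fits that each left out 1 library.

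Trib3 and Nupr1 had the largest differences of the regulators in both alisertib arms. Trib3 encodes a pseudokinase that binds ATF4 and limits it (ENSMUSG00000032715.9, chr2:152337422-152344032, minus strand). Its levels were 2115, 2703 and 2135 normalized reads with vehicle, 371, 404 and 270.4 with alisertib, 269, 1803 and 665 with navitoclax, and 254, 177 and 203 with the combination. The vehicle libraries were above every other library, and navitoclax 2 was above all other treated libraries. Trib3 fell by 2.74 ± 0.51 with alisertib (adjusted p = 0.0348) and by 3.45 ± 0.51 with the combination (adjusted p = 0.00607), and differed by −1.74 ± 0.51 with navitoclax (adjusted p = 0.661). Nupr1, a small stress-induced chromatin regulator (ENSMUSG00000030717.9, chr7:126623249-126630861, minus strand), stood at 924, 879.7 and 603 normalized reads with vehicle, 139.6, 131 and 100.1 with alisertib, 91.0, 387 and 211 with navitoclax, and 107, 102 and 127 with the combination. No treated library reached the vehicle range. The falls were 2.67 ± 0.42 with alisertib (adjusted p = 0.0141) and 2.80 ± 0.42 with the combination (adjusted p = 0.00607), beside a difference of −2.0 ± 0.42 with navitoclax that did not pass (adjusted p = 0.26). With 1 library left out in turn, the alisertib calls held in 3 of 12 fits for Trib3 and 7 of 12 for Nupr1.

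Atf3 and Cebpg passed the test with the combination and with no other arm. Atf3, an ATF4-induced repressor (ENSMUSG00000026628.13, chr1:191170296-191218039, minus strand), stood at 522, 426 and 567 normalized reads with vehicle, 348, 334 and 208 with alisertib, 194, 373 and 355 with navitoclax, and 261, 170.3 and 94.1 with the combination. Every treated library was below every vehicle library, and the fall with the combination was 1.63 ± 0.37 (adjusted p = 0.0463). Cebpg, a C/EBP partner of ATF4 (ENSMUSG00000056216.9, chr7:35046422-35056573, minus strand), stood at 1450.5, 1637 and 1424 normalized reads with vehicle, 1020.4, 964 and 1129 with alisertib, 1088, 1523 and 1339 with navitoclax, and 912, 1039.7 and 969.9 with the combination. Alisertib and combination libraries did not overlap vehicle while those with navitoclax did, and the fall with the combination was 0.62 ± 0.15 (adjusted p = 0.0479). Atf5, a sister factor of ATF4, and Cebpb, another C/EBP factor, did not pass in any of the 3 arms. Atf5 differed by −1.68 ± 0.44 with alisertib (adjusted p = 0.131) and by −1.44 ± 0.44 with the combination (adjusted p = 0.116). For Cebpb the differences were −0.96 ± 0.40 and −0.56 ± 0.40 (adjusted p = 0.337 and 0.55). The calls of Atf3 and Cebpg each held in 2 of 12 fits that left out 1 library, and neither passed by edgeR, with no filter, with TMM scaling, with only the compared groups, or without vehicle 2 and combination 3.

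**Figure D2:**
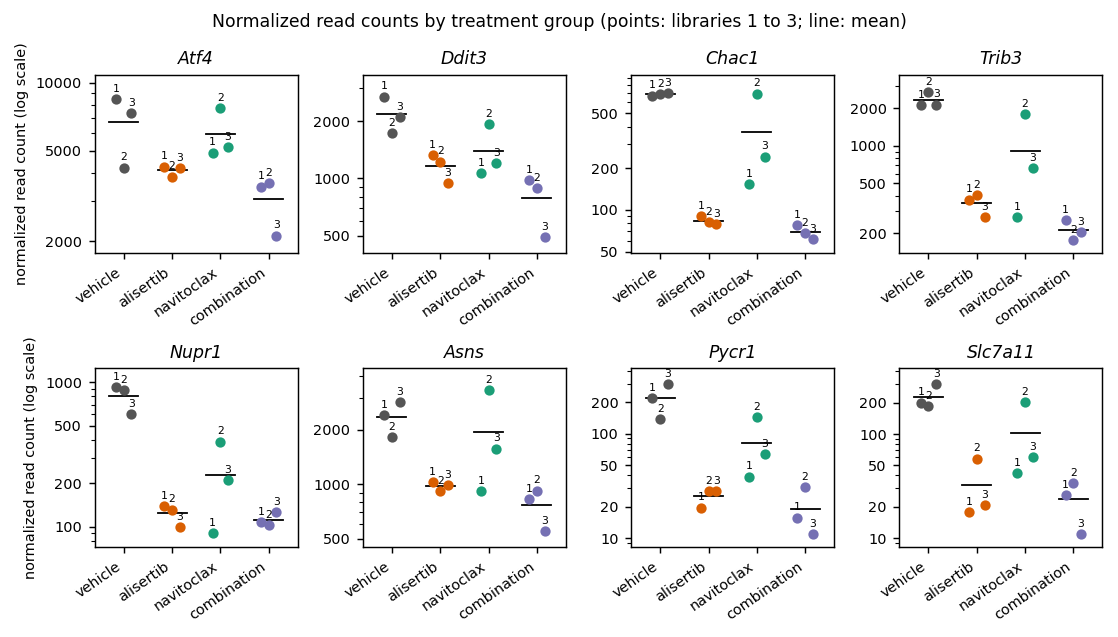
Normalized read counts (log scale) of 8 members in the 3 libraries of each group; points are libraries, numbered, and lines are group means. For Chac1 the vehicle libraries sit at 667 to 699.9 and those with alisertib or the combination at 61.5 to 90.2, while navitoclax 2 sits at 691.

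Among the 5 tested effector and feedback genes, 1 fell with alisertib, 3 with the combination and 0 with navitoclax. Chac1 encodes an enzyme that degrades glutathione and is a standard readout of ATF4 (ENSMUSG00000027313.3, chr2:119351229-119354381, plus strand). It stood at 667, 689 and 699.9 normalized reads with vehicle, 90.2, 81.8 and 79.5 with alisertib, 153, 691 and 243 with navitoclax, and 77.6, 68.1 and 61.5 with the combination. The vehicle libraries were close together, those with alisertib or the combination were all far below them, and navitoclax 2 was at the vehicle level. Chac1 fell 8.02-fold with alisertib (−3.0 ± 0.42 log2, adjusted p = 0.00612) and 9.71-fold with the combination (−3.28 ± 0.42 log2, adjusted p = 0.00247). With navitoclax the difference was −1.21 ± 0.42 (adjusted p = 0.704). Both calls of Chac1 held in each of 12 fits that left out 1 library.

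Ppp1r15a encodes GADD34, which directs dephosphorylation of eIF2α and so ends the response (ENSMUSG00000040435.12, chr7:45522916-45526268, minus strand). It stood at 1579, 1012 and 1639 normalized reads with vehicle, 846, 719.9 and 511 with alisertib, 718, 1107 and 622 with navitoclax, and 573, 433 and 337 with the combination. All alisertib and combination libraries were below vehicle, whose range overlapped that of navitoclax; the fall with the combination was 1.65 ± 0.29 (adjusted p = 0.0159). Vldlr, the very low density lipoprotein receptor and an ATF4 target (ENSMUSG00000024924.14, chr19:27216484-27254231, plus strand), stood at 1369.5, 1811 and 1468 normalized reads with vehicle, 965, 559 and 407 with alisertib, 721, 1101 and 520.5 with navitoclax, and 544, 284 and 427 with the combination. No treated library overlapped vehicle, and Vldlr fell by 1.92 ± 0.35 with the combination (adjusted p = 0.019). In the fits that left out 1 library, the call of Ppp1r15a held in 9 of 12 and that of Vldlr in 8 of 12. Eif4ebp1 encodes 4E-BP1, a repressor of cap-dependent translation, and its difference with the combination was −0.97 ± 0.32 (adjusted p = 0.136). Ddit4 encodes REDD1, an inhibitor of mTORC1, and was the 1 member with a positive difference in both alisertib arms, at 0.15 ± 0.27 with alisertib and 0.04 ± 0.27 with the combination (adjusted p = 0.826 and 0.962).

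Of 9 genes of amino acid and one-carbon synthesis, 2 fell with alisertib, 2 with the combination, 0 with navitoclax and 7 over both navitoclax levels. Pycr1, which makes proline in mitochondria (ENSMUSG00000025140.15, chr11:120635712-120643769, minus strand), stood at 219.8, 137 and 298 normalized reads with vehicle, 19.6, 28.3 and 28.1 with alisertib, 38.9, 143 and 64.3 with navitoclax, and 15.7, 30.7 and 10.9 with the combination. Libraries with alisertib or the combination were all far below vehicle, and navitoclax 2 was within the vehicle range. The falls were 2.96 ± 0.49 with alisertib (adjusted p = 0.0198) and 3.43 ± 0.49 with the combination (adjusted p = 0.00515). Shmt2, the mitochondrial enzyme that turns serine into glycine (ENSMUSG00000025403.5, chr10:127517123-127522444, minus strand), stood at 3679, 4134 and 3636 normalized reads with vehicle, 2125, 2029.7 and 2224 with alisertib, 2928, 4686 and 3189 with navitoclax, and 2061, 2409.8 and 2157 with the combination. Its falls were smaller, at 0.84 ± 0.17 (adjusted p = 0.0436) and 0.79 ± 0.17 (adjusted p = 0.0346), and navitoclax 2 was above every vehicle library. Leaving out 1 library in turn, Pycr1 with alisertib held in 7 of 12 fits, and Shmt2 in 3 of 12 with alisertib and 2 of 12 with the combination.

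Asns, the asparagine synthetase and a textbook ATF4 target (ENSMUSG00000029752.12, chr6:7675169-7693254, minus strand), stood at 2418, 1821 and 2854 normalized reads with vehicle, 1028, 918 and 994 with alisertib, 919, 3338 and 1577 with navitoclax, and 829, 924 and 550.1 with the combination. The alisertib and combination libraries were below every vehicle library, whereas navitoclax 2 was above them all. Neither arm passed against vehicle, at −1.25 ± 0.38 with alisertib (adjusted p = 0.196) and −1.63 ± 0.38 with the combination (adjusted p = 0.051), but over both navitoclax levels Asns fell by 1.21 ± 0.27 (adjusted p = 0.0316). Mthfd2, of mitochondrial folate metabolism, Psat1, of serine synthesis, Aldh18a1, which starts proline synthesis, and Cth, which makes cysteine, behaved alike in the tests: each passed over both navitoclax levels, with falls of 1.36 ± 0.25, 0.76 ± 0.19, 0.77 ± 0.17 and 1.46 ± 0.36 (adjusted p = 0.0136, 0.0484, 0.0317 and 0.0471), and none passed in a single arm. Phgdh and Psph, also of the serine pathway, did not pass in the main limma fit. Phgdh differed by −1.14 ± 0.38 with alisertib and −0.71 ± 0.38 with the combination (adjusted p = 0.231 and 0.387). For Psph these were −1.27 ± 0.32 and −0.75 ± 0.32 (adjusted p = 0.119 and 0.254).

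Among 6 transporters, 0 fell with alisertib or navitoclax, 2 with the combination and 3 over both navitoclax levels. Slc7a11 is the cystine-glutamate exchanger that feeds glutathione synthesis (ENSMUSG00000027737.10, chr3:49892526-50443614, minus strand). It stood at 201, 186 and 303 normalized reads with vehicle, 17.9, 58.1 and 20.6 with alisertib, 42.2, 202 and 60.3 with navitoclax, and 25.9, 34.1 and 10.9 with the combination. The alisertib and combination libraries were below every vehicle library and navitoclax 2 was within the vehicle range; the fall with the combination was 3.27 ± 0.61 (adjusted p = 0.0203), and the difference with alisertib, −2.92 ± 0.61, just missed the threshold (adjusted p = 0.0594). Slc6a9, a glycine transporter (ENSMUSG00000028542.17, chr4:117834506-117875198, plus strand), stood at 923, 752 and 1273 normalized reads with vehicle, 463, 394 and 445 with alisertib, 421, 807 and 485 with navitoclax, and 404, 478 and 423 with the combination. Its differences with alisertib and the combination were the same to 2 decimals, −1.14 ± 0.25 and −1.14 ± 0.25, and only that of the combination passed (adjusted p = 0.0388 against 0.0683). Of 12 fits that left out 1 library, the combination call held in 8 for Slc7a11 and 3 for Slc6a9. In the annotation 27.8% of the exon bases of Slc6a9 also lie in exons of Ccdc24 on the opposite strand, and the strand setting of the counting is not given in the sources used here. The shared portion was 20.7% for Cebpb with Tmem189 and 10.4% for Psph with Cct6a, on opposite strands, and 14.3% for Aars with Exosc6 on the same strand.

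The arginine carrier Slc7a1 fell by 0.63 ± 0.12 over both navitoclax levels (adjusted p = 0.0157). Slc7a5 and Slc3a2, whose products together form a leucine carrier, and the glutamine carrier Slc38a2 did not pass in the main limma fit. Their differences with the combination were −0.31 ± 0.15, −0.40 ± 0.13 and −0.24 ± 0.13 (adjusted p = 0.336, 0.142 and 0.422). Per kilobase of exon these 3 transporters were above the cystine exchanger in the vehicle tumours: the mean normalized reads per kilobase with vehicle were 2388 for Slc7a5, 2175 for Slc3a2, 639.8 for Slc38a2 and 16.5 for Slc7a11. The highest member on this scale was Gars, at 2935, followed by Atf4, at 2828, and the lowest was Stc2, at 0.299.

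Of the 12 tested genes that charge or export tRNA, 1 fell with alisertib, 5 with the combination, 0 with navitoclax and 8 over both navitoclax levels. The differences were small: the median differences were −0.59 with alisertib and −0.63 with the combination. Cars, the cysteinyl-tRNA synthetase (ENSMUSG00000010755.17, chr7:143557230-143600090, minus strand), stood at 1685, 2093 and 1557 normalized reads with vehicle, 969, 1002 and 1059 with alisertib, 1144, 1624 and 1315 with navitoclax, and 996, 1144 and 1129 with the combination. Cars fell by 0.80 ± 0.16 with alisertib (adjusted p = 0.043) and 0.70 ± 0.16 with the combination (adjusted p = 0.045). The glycyl-tRNA synthetase Gars (ENSMUSG00000029777.10, chr6:55038007-55079500, plus strand) stood at 9177, 8574 and 9710.4 normalized reads with vehicle, 5745, 5382 and 6114 with alisertib, 5817, 9825 and 7042 with navitoclax, and 5445, 5457 and 4788 with the combination. Libraries with alisertib or the combination lay below all vehicle libraries and navitoclax 2 lay above them, and Gars fell by 0.81 ± 0.17 with the combination (adjusted p = 0.0364). These calls were lost in most fits that left out 1 library: Cars held in 3 of 12 with alisertib and 2 of 12 with the combination, and Gars in 2 of 12. Neither Cars call passed by edgeR, with no filter or with only the compared groups.

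Lars and Nars charge leucine and asparagine, and Xpot carries charged and uncharged tRNA out of the nucleus. Lars (ENSMUSG00000024493.8, chr18:42202298-42262194, minus strand) stood at 2734, 3379 and 3089 normalized reads with vehicle, 1784, 1641 and 1809 with alisertib, 1703, 2994 and 2189.9 with navitoclax, and 1742, 1776 and 1563 with the combination. For Nars (ENSMUSG00000024587.9, chr18:64499647-64516652, minus strand) the levels were 5146, 5922 and 5071 normalized reads with vehicle, 3334, 3363 and 3489 with alisertib, 3981, 5504 and 4389 with navitoclax, and 3417, 3344 and 3695 with the combination. Xpot (ENSMUSG00000034667.8, chr10:121587380-121626332, minus strand) stood at 3049, 3690.1 and 3297 normalized reads with vehicle, 2250.2, 2129.8 and 2204 with alisertib, 2384, 3208 and 2418 with navitoclax, and 2065, 2088 and 2294 with the combination. In all of these the 6 libraries with alisertib were below the 3 vehicle libraries, navitoclax 2 was within the vehicle range, and the falls with the combination were 0.85 ± 0.18, 0.62 ± 0.14 and 0.64 ± 0.14 (adjusted p = 0.0369, 0.0377 and 0.0377). Each of the 3 calls held in 2 of 12 fits that left out 1 library. None passed with no filter, with only the compared groups, or without vehicle 2 and combination 3. Nars and Xpot also did not pass by edgeR.

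Eprs, Iars and Tars, for glutamate with proline, isoleucine and threonine, fell over both navitoclax levels by 0.62 ± 0.15, 0.57 ± 0.14 and 0.47 ± 0.10 (adjusted p = 0.0452, 0.0478 and 0.0205). Aars, Sars, Wars and Yars, for alanine, serine, tryptophan and tyrosine, did not pass in the main limma fit. Their differences with the combination were −0.28 ± 0.16, −0.61 ± 0.15, −0.32 ± 0.22 and −0.43 ± 0.28 (adjusted p = 0.439, 0.0614, 0.529 and 0.491). The row named Mars, not counted among the members, differed by −0.62 ± 0.19 with alisertib and −0.37 ± 0.19 with the combination (adjusted p = 0.192 and 0.346).

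**Figure D3:**
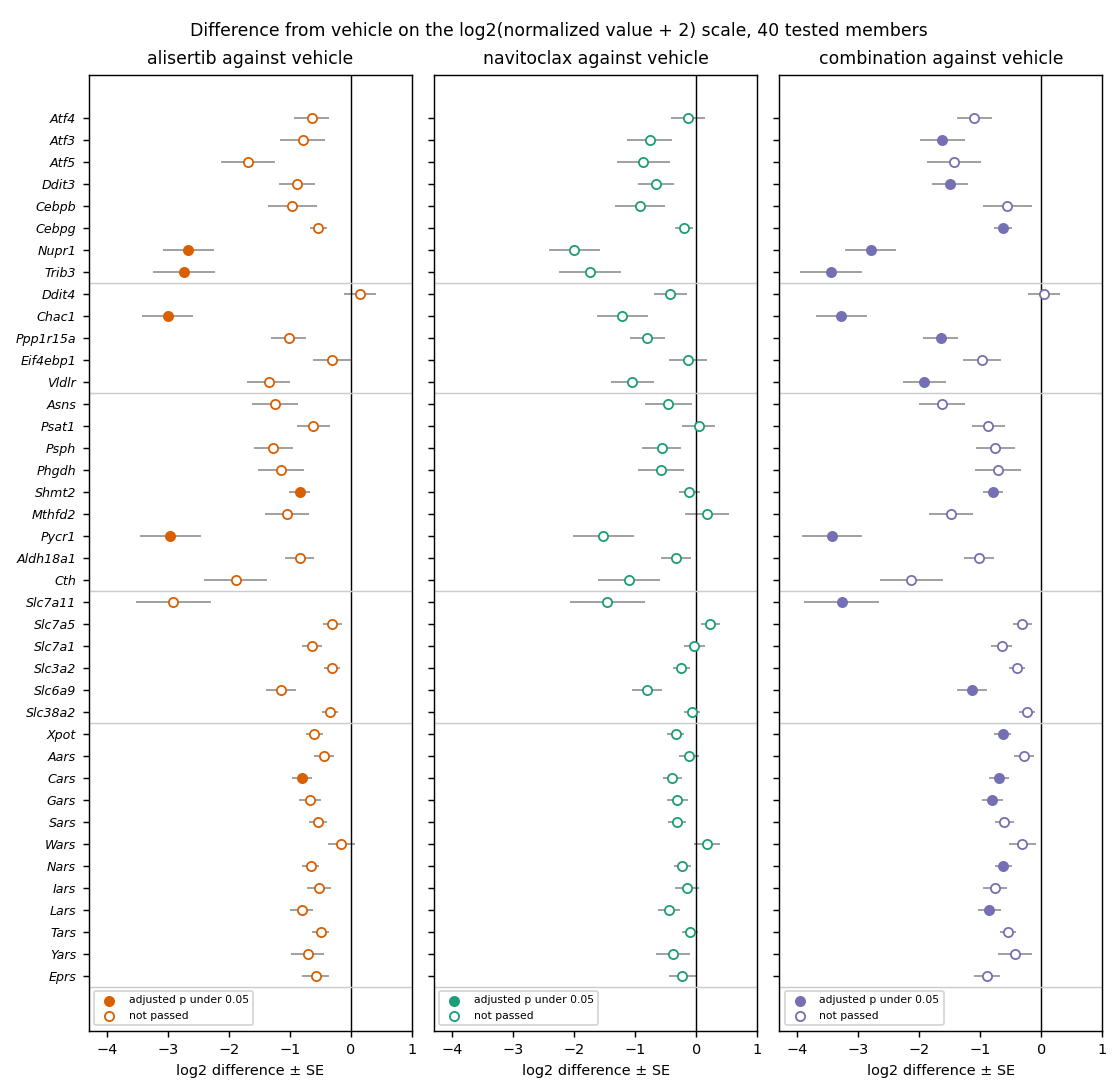
Difference from vehicle ± SE on the log2(normalized read count + 2) scale for the 40 tested members in each arm. Differences run from −3.0 to 0.15 with alisertib and from −3.45 to 0.04 with the combination; the members that passed number 6 and 17, and 0 with navitoclax.

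How many members passed depended on single libraries, while no member described library by library changed direction with alisertib or the combination in the fits that left out 1 library. With the combination the 17 became 4 without vehicle 1, 9 without vehicle 2, 4 without vehicle 3, 8 without any 1 alisertib library, 8 without navitoclax 3, 8 without combination 1, 5 without combination 2 and 6 without combination 3, and 21 and 23 without navitoclax 1 and 2. With alisertib the 6 became 1 without vehicle 1 or any 1 alisertib library, 2 without vehicle 2 or vehicle 3, 3 without navitoclax 3, combination 1 or combination 2, and 14 without navitoclax 2. Over both navitoclax levels the 26 became 8 to 15 without vehicle 1 or 3, any alisertib library, navitoclax 2 or 3, or combination 1. In these fits the share of all genes that fell ran from 0.207% to 1.0% with the combination, from 0.0947% to 0.434% with alisertib and from 0.598% to 1.94% over both levels. The falls of Chac1, Trib3, Nupr1 and Pycr1 with the combination and of Chac1 with alisertib passed in all 12 of these fits. Without vehicle 2 and combination 3, the libraries rich in ribosomal RNA, the member medians were −0.76 with alisertib and −0.77 with the combination. Summed over their list, though not for each gene, macrophage markers were higher in every alisertib and combination library than in every vehicle library. Erythroid markers (all 7 measured) went the other way, at 4313, 35502 and 14931 with vehicle, 1881, 5987 and 1398 with alisertib, 12439, 1938 and 4468 with navitoclax, and 960, 2480 and 1708 with the combination, where all 3 libraries lay below every vehicle library. The part of either in the member differences was not tested.

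The navitoclax libraries spread more widely in the member median than those of any other group. By library, the median member difference from the vehicle mean was −0.64 in navitoclax 1, 0.02 in navitoclax 2 and −0.39 in navitoclax 3, against −0.68, −0.78 and −0.74 with alisertib, and −0.86, −0.76 and −1.0 with the combination. Navitoclax 1 had 35 and navitoclax 3 had 30 of 40 members below all vehicle libraries; navitoclax 2 had 6 below and 7 above them. The share of all genes below or above vehicle in a single library was not computed, so these counts have no background beside them. The 3 vehicle libraries had medians of −0.04, −0.05 and 0.06, and the median over all genes lay between −0.02 and 0.02 in every library. Macrophage markers, at 1459, were lowest in navitoclax 2 of the 9 treated libraries, and skeletal muscle markers highest in navitoclax 1; their part was not tested. Leaving out navitoclax 2 took the median with navitoclax to −0.52 and the count that fell from 0 to 3, beside 0.0944% of all genes, namely Chac1 (adjusted p = 0.0327), Trib3 (adjusted p = 0.0363) and Nupr1 (adjusted p = 0.0363). Leaving out any other single library gave 0 members. Navitoclax 2 was picked out here by these same member values, so the 3 calls are a description and not separate evidence of a fall.

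Between the drug arms, 1 member passed. Chac1 was lower with the combination than with navitoclax by 2.07 ± 0.42 (adjusted p = 0.0419), where 0.224% of all genes were, and 0 members were higher, against 0.965%; it did not pass without vehicle 1, vehicle 3, any 1 alisertib library, navitoclax 3, combination 1 or combination 3, each of which left 0 members called. All combination libraries were below all navitoclax libraries for 21 of 40 members, against 14.8% of all genes, and above them for 0, against 14.2%; the median difference was −0.59. Alisertib against navitoclax gave 0 calls by limma (13 members with an unadjusted p under 0.05; edgeR 0, DESeq2 6 beside 0.73% of all genes), against 0.00588% of all genes lower and 0.277% higher, with a median of −0.38. Alisertib libraries lay below all navitoclax libraries for 17 members, against 10.2% of all genes, and above them for 1, Ddit4, against 9.35%.

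Adding navitoclax to alisertib gave no call: combination against alisertib had 0 of 40 members past the threshold by limma and 0% of all genes, with 1 member at an unadjusted p under 0.05 and 0 by edgeR and DESeq2. The median member difference was −0.12, and combination libraries lay below all alisertib libraries for 3 members (Atf4, Chac1 and Trib3), against 5.2% of all genes, and above them for 0, against 5.08%. For Chac1 it was −0.28 ± 0.42 (95% interval −1.19 to 0.64), for Trib3 −0.71 ± 0.51 (−1.84 to 0.41), for Ddit3 −0.62 ± 0.30 (−1.27 to 0.03) and for Asns −0.38 ± 0.38 (−1.23 to 0.46), so that at 3 libraries a group differences of this size in either direction were not resolved. The interaction of the drugs, that is the combination difference minus the sum of the single-drug differences, also gave 0 calls by limma, with 5 members at an unadjusted p under 0.05 and 0 by edgeR and DESeq2. Its member median was 0.21 against −0.04 over all genes; the largest was that of Nupr1, 1.87 ± 0.59 (adjusted p = 0.436).

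The promoters of the members were read for the element that ATF4 binds. No sequence was used to choose the members, but they were listed as genes of the ATF4 programme. A higher share with the core than among all windows is therefore not independent of that choice. The C/EBP-ATF response element core was searched as TGATGNAA on both strands (TTNCATCA on the other) in the RefSeq windows of GRCm38.p6 from 250 bases before to 50 after each start. A window was matched for 35 of the 42 members, not for Slc7a5, Eif4ebp1, Cth, Cars, Wars, Nars and Lars. The core was found in 13 of 41 member windows (31.7%), belonging to 13 genes, against 1304 of all 32851 windows (3.97%). Stretches of 40 bases around the core are shown for the members whose core began at least 20 bases before the start. This cut was set with the falls known, so the choice of stretches is not independent of them and says nothing of a link. It left out Trib3, the largest fall with the combination (−3.45), and kept Aars (−0.28). Each stretch is written 5′ to 3′ on the strand that reads TGATGNAA, with the core in capitals.
Chac1, chr2:119351033-119351072, minus strand: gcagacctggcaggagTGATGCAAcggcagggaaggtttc
Nupr1, chr7:126625557-126625596, plus strand: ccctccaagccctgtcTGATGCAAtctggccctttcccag
Pycr1, chr11:120643828-120643867, minus strand: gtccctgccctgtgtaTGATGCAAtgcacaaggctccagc
Slc7a11, chr3:50443656-50443695, minus strand: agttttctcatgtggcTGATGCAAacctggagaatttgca
Slc7a11, chr3:50443637-50443676, plus strand: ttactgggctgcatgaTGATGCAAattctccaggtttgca
Vldlr, chr19:27216804-27216843, minus strand: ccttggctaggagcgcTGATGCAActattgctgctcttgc
Atf3, chr1:191183420-191183459, plus strand: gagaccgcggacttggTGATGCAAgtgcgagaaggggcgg
Asns, chr6:7693209-7693248, minus strand: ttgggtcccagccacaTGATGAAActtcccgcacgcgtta
Gars, chr6:55037955-55037994, minus strand: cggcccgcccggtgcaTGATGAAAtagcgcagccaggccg
Aars, chr8:111033714-111033753, minus strand: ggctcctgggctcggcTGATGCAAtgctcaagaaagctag
The core began 193 bases before the start of Chac1, 110 before that of Nupr1 and of Atf3, 103 before that of Pycr1, and 200 before one of the starts of Vldlr. Slc7a11 had 2 cores, 66 and 47 bases before the start and on opposite strands. Trib3, Iars and Yars held the core within 14 bases after the start, Tars 15 bases before it, and Aars a second one 9 bases after it. A match is a description of these letters and not evidence of binding, and in a window without a match only these letters are missing.

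Members with the core in their window had a median difference of −1.25 with alisertib, −0.76 with navitoclax and −1.63 with the combination (13 genes, 8 of which fell with the combination). The 20 tested members with a window but no core had medians of −0.74, −0.32 and −0.77, and 6 of these fell with the combination. The ranges overlapped: with the combination, differences ran from −3.45 to −0.28 with the core and from −1.65 to 0.04 without it. No test was made of this split, because genes are not replicates.

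Genes near the members in the pathway were read from the same fit, in lists also chosen with earlier results of these data known. Of 12 other ATF4 targets, 5 fell with alisertib, against 0.318% of all genes, 5 with the combination, against 1.15%, and 1 with navitoclax, against 0.0647%. Differences were positive for 2 of the 12 with alisertib, 4 with the combination and 0 with navitoclax. The list medians were −0.77, −0.68 and −0.73 in these arms, against 0.01, −0.01 and 0.01 over all genes. The lowest was Fgf21, a secreted hormone, which stood at 745, 350.4 and 909 normalized reads with vehicle, 4.26, 3.06 and 6.55 with alisertib, 11.6, 60.1 and 32.5 with navitoclax, and 7.40, 0.852 and 3.62 with the combination, and which fell in all 3 arms (adjusted p = 0.000851, 0.0334 and 0.000508 with alisertib, navitoclax and the combination). Gpt2, an alanine aminotransferase, Slc1a4, a neutral amino acid carrier, and Pck2, of mitochondrial phosphoenolpyruvate synthesis, fell by 1.06 ± 0.19, 2.35 ± 0.43 and 2.15 ± 0.39 with alisertib (adjusted p = 0.0262, 0.0304 and 0.0283). Sesn2, a target of both ATF4 and p53, rose by 1.15 ± 0.21 with the combination (adjusted p = 0.018). Its alisertib libraries, at 2142, 1953 and 1941 normalized reads, were also above those with vehicle, at 989, 1134 and 1089, but did not pass by limma. Sesn2 was singled out after its value was seen, as the 1 gene of the list that passed as higher, where 1.38% of all genes did with the combination. It was not alone above vehicle. Without overlap of libraries, 2 of the 12 lay above vehicle with alisertib and 2 with the combination, Sesn2 among them, against 10.7% and 9.73% of all genes. By edgeR on recovered reads 4 targets fell with alisertib, 4 with the combination and 0 with navitoclax, against 0.288%, 0.8% and 0.0471% of all genes.

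The other lists held few or no calls. Among 13 kinases and regulators of eIF2α, 0 passed in any arm by limma, and the medians were −0.09, −0.04 and −0.08 with alisertib, navitoclax and the combination. Among 8 cytosolic synthetases outside the members 0 passed, with medians of −0.10, −0.01 and −0.14, and among 17 mitochondrial synthetases 0 passed, with medians of −0.31, −0.13 and −0.10. Of 15 tested genes of one-carbon, serine, proline and glutamine metabolism outside the members, 1 fell, with the combination: Aldh1l2, a mitochondrial folate enzyme, by 2.56 ± 0.52 (adjusted p = 0.029). In that arm 1.15% of all genes fell. At an unadjusted p under 0.05 there were 0 of the eIF2α genes in each arm, 1, 0 and 1 of the other cytosolic synthetases, and 3, 1 and 2 of the mitochondrial ones with alisertib, navitoclax and the combination. The one-carbon, serine, proline and glutamine list had 4, 3 and 3. On recovered reads edgeR called 0 of the eIF2α and synthetase lists in each arm. DESeq2 called 1 other cytosolic synthetase with the combination and 1 mitochondrial one with alisertib. In the one-carbon, serine, proline and glutamine list edgeR called 1 gene lower and DESeq2 2, all with the combination.

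**Figure D4:**
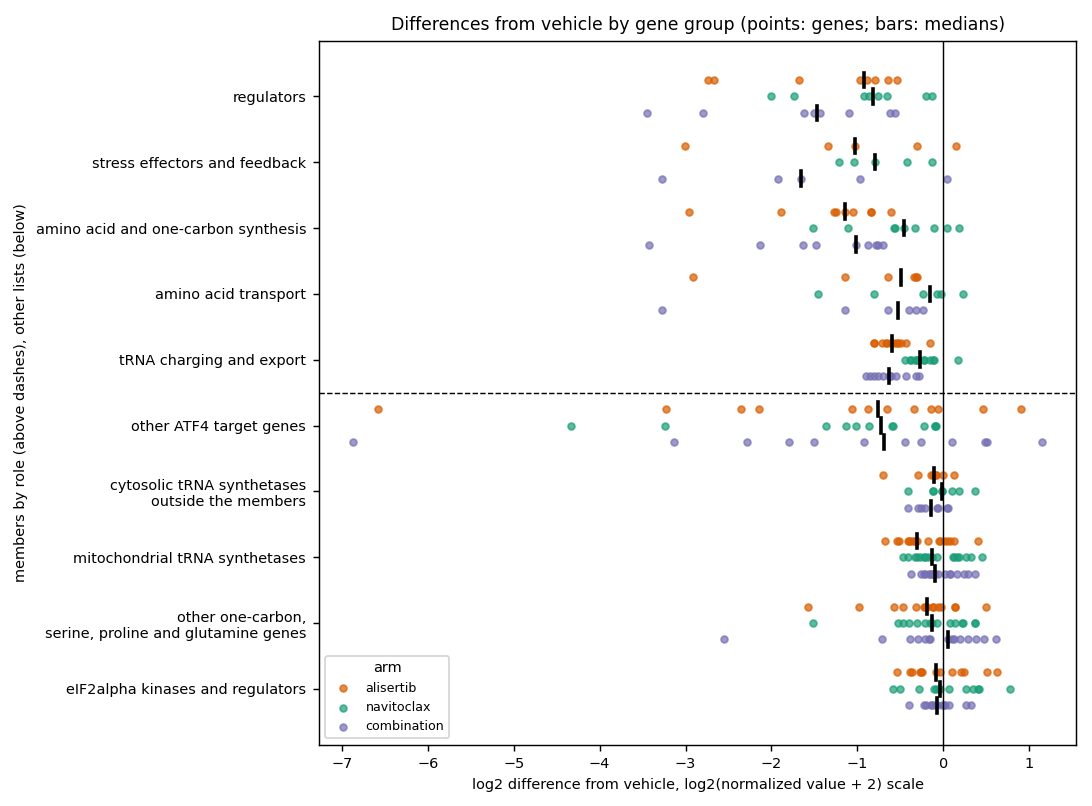
Difference from vehicle on the log2(normalized read count + 2) scale by gene group and arm; points are genes and bars are group medians. The 12 member genes of tRNA charging and export have medians of −0.59 with alisertib and −0.63 with the combination, and the 8 other cytosolic synthetases have −0.10 and −0.14.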

How the data were processed

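Ribosome-depleted, directional RNA-seq was made from tumours (12 libraries), per the labels' protocols. The deposited table holds 1 normalized signal per gene and library, which is not a raw count: every value (100%) was a whole multiple of 1 step per library within 0.001, and reads were recovered by dividing by that step. HISAT2 2.0.6, Subread 1.5.1 with featureCounts, and DESeq2 are listed in the submitters' processing notes, as are GRCm38.p4 and mm10; the strand setting and the annotation release are not given in the sources used here. Values of genes that overlap another gene are therefore uncertain.

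Groups came from the treatment in the labels, and libraries were numbered within groups in accession order. The column of navitoclax 3 differs in part from its title and was matched by library code. Differences on the log2(value + 2) scale were tested with limma 3.58.1 (R 4.3.3); this scale understates changes of low genes. The test took genes that reached 10 in 3 or more libraries. The model held a mean for each group and all 12 libraries, with variance moderation both trended and robust; adjusted p is Benjamini-Hochberg over the 16993 tested genes within each of 8 comparisons, with a threshold of 0.05. Errors printed after differences are standard errors. Alternatives were edgeR 4.0.16 and DESeq2 1.42.0 on recovered reads, other pseudocounts, filters and scalings, library weights, and each library left out. The limma, edgeR and DESeq2 steps were tested on simulated data. Coordinates (GRCm38) and exon lengths came from GENCODE M21, which matched 50376 of 50600 identifiers, and promoters from RefSeq GRCm38.p6. Coordinates are counted from 1.

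The members, the comparison lists and the alternatives were chosen with earlier results of these data known. Values in every library are given for members past the threshold in an arm against vehicle and for Atf4, Ddit3, Asns and Chac1. From each comparison list at most 4 genes were named, by smallest p, apart from Sesn2, which was named in addition.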

Additional observations from a re-analysis of the deposited data

How the results depend on the processing

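The number of members called lower moved with the setting, and so did the share of all genes called lower, given here after each count. With alisertib against vehicle (6 members, 0.318% of all genes) DESeq2 called 23 (1.87%) and library quality weights 32 (9.22%); leaving out 1 library gave 1 to 14. With navitoclax (0, 0.0647%) these were 1 (0.459%) and 2 (0.483%), and 0 to 3. With the combination (17, 1.15%) they were 29 (3.32%) and 36 (21.1%); no filter gave 9 (0.475%), only the compared groups 3 (0.192%), leaving out vehicle 2 and combination 3 gave 8 (0.843%), and leaving out 1 library gave 4 to 23. For alisertib against navitoclax (0, 0.00588%) DESeq2 called 6 (0.73%) and weights 12 (3.07%), with 0 to 1 when 1 library was left out. For combination against alisertib (0, 0%) weights called 1 member of 40 beside 8.94% of all genes, and each library left out gave 0. For combination against navitoclax (1, 0.224%) DESeq2 called 12 (2.48%) and weights 29 (15%), while no filter (0.037%), only the compared groups (0%) and leaving out vehicle 2 and combination 3 (0.592%) called 0 members; leaving out 1 library gave 0 to 2. Over both navitoclax levels (26, 1.88%) no filter gave 17 (0.602%), and leaving out 1 library 8 to 26. Members higher stayed at 0 under all settings, except 1 in the interaction with weights, beside 1.72% of all genes. The cause was not tested. With the combination, DESeq2 and weights each called all 17 members of the limma fit, and edgeR called 12 of the 17.

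Of the members given library by library, 2 turned sign with navitoclax, a comparison in which neither passed: Shmt2 to 0.021 without navitoclax 1 (range −0.32 to 0.021 over the libraries left out) and Atf4 to 0.065 without vehicle 1 (range −0.43 to 0.065). TMM scaling left the member medians at −0.77, −0.33 and −0.83 with alisertib, navitoclax and the combination. Trib3 did not pass with the combination without vehicle 2 and combination 3 (adjusted p = 0.0669), nor did Pycr1 with only the compared groups (adjusted p = 0.0503). The low depth of vehicle 2 and combination 3 limits genes such as Stc2. No paired analysis was possible because the labels give the libraries no replicate numbers.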
